A study of Mus musculus with 6 samples.

Results

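Of the 34298 gene names on the arrays, 73 belong to the glycosyltransferases that start, build and cap mucin-type O-glycans or add fucose. The rule that picks them uses gene names and comprised the *Galnt*, *Gcnt*, *Fut*, *B3gnt*, *B4galnt*, *B4galt*, *B3galt*, *St3gal* and *St6gal* families together with *C1galt1* and *A4gnt*. The 73 genes were read by 107 probes, and each gene is described by the probe with the highest mean over all arrays. Some members also act on N-glycans, glycolipids or proteoglycans, so the group is wider than mucin glycosylation.

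Single-color Agilent arrays measured total RNA of mouse organoids, which are epithelial cell clusters grown in a gel from tissue stem cells. The stomach group held 3 arrays of control organoids grown from glands of the gastric corpus, and the esophagus group held 3 arrays of control organoids grown from esophageal epithelium. The labels number the mice 1, 2 and 4 in both tissues, and all cultures were at passage 0. The harvest was on day 8 for 5 cultures and on day 7 for the stomach culture of mouse 4. Stomach medium contained WNT3A, R-spondin1 and gastrin, whereas esophageal medium lacked them and contained forskolin, so tissue and medium cannot be told apart. The study's methods list wild-type and reporter strains, and the strain, sex and age of the mice used here are not given in the sources used here. Whether a number marks the same animal in both tissues is not stated either. Each group is meant as a model of the epithelium without the underlying stroma, and markers of other cell types are given below.

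In an epithelial cell, O-glycosylation of mucins starts in the Golgi, where a GALNT enzyme places N-acetylgalactosamine (GalNAc) on serine or threonine. C1GALT1 adds galactose to make core 1, GCNT enzymes branch it to core 2, and B3GNT6 instead makes core 3. B3GNT, B4GALT and B3GALT enzymes lengthen the chains, and fucose, sialic acid, GalNAc or terminal N-acetylglucosamine (GlcNAc) close them. Columnar cells of the stomach surface and glands secrete heavily O-glycosylated mucins carrying fucosylated blood group structures, and the gland mucin carries a terminal GlcNAc that A4GNT adds. Stratified squamous epithelium protects the esophagus by keratin-rich cell layers and does not itself form a mucus gel.

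Values below are log2 intensities after the authors' normalization, listed for mice 1, 2 and 4 in that order, and every difference is esophagus minus stomach. A gene was called when its limma p-value, adjusted by Benjamini-Hochberg over all 55681 probes, was under 0.05. No spot was saturated. Between 45.5% and 51.1% of non-control spots per array were well above background, and a gene below it on all arrays of a tissue has only an upper limit there. The esophageal array of mouse 4 was alone on its slide and the other 5 arrays shared 1 slide.

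The tissue labels were checked against marker genes. Of 8 squamous markers, 7 were higher in esophageal organoids, *Krt5* and *Krt14* among them. The exception was *Trp63*, a squamous transcription factor whose brightest probe was higher in stomach organoids with a difference of -1.22. Its further probes are not described here, and the study's staining found P63 protein in esophageal organoids. Of 8 columnar markers, 7 were higher in stomach organoids, and *Epcam* missed the threshold with an adjusted p of 0.0623. None of 7 fibroblast and smooth muscle markers was called by limma or had an unadjusted p under 0.05. On no full set of 3 arrays was any of them above background, and their summed linear intensity was 212 to 228 on stomach arrays and 203 to 301 on esophageal arrays. Of 5 immune markers 0 were called by limma and 2 had an unadjusted p under 0.05. The pan-leukocyte gene *Ptprc* was well above background on no array, although the summed immune markers ranged from 2350 to 5670 in stomach and from 3840 to 28200 in esophagus, with *Cd68* bright in both. Some markers of other cell types did move with the tissue. Of 3 goblet or intestinal markers, *Cdx2* was at least 18.1-fold and *Spink4* at least 191-fold higher in stomach, while *Muc2* was not called, and the list summed to 5700 to 9830 in stomach and 90.6 to 114 in esophagus. Among neural markers, *Tubb3* was 20.6-fold higher in esophagus (adjusted p = 0.00271) and *Sox10* was well above background on no array. Of the gastric lists, 4 of 4 pit, 4 of 4 neck and gland, 2 of 3 chief and 1 of 2 parietal markers were higher in stomach. The parietal marker called, *Atp4a*, was dim at 5.76, 6.01 and 6.42 in stomach and at least 1.94-fold higher there. The other, *Atp4b*, was well above background on no array. None of 4 enteroendocrine, 3 tuft or 3 endothelial markers was called by limma, and of these 1 endothelial marker had an unadjusted p under 0.05. Not being called does not mean absent. The endothelial markers *Kdr* (mean 8.64 in stomach and 8.89 in esophagus) and *Pecam1* (6.11 and 5.92) were well above background on every array. So was the immune marker *Cd3e* (7.89 and 7.39). The part of other cell types in the results below was not tested.

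Stomach and esophageal organoids differed in many of these enzymes, in both directions. Of the 73 genes, 21 (28.8%) were higher in stomach organoids, where 7.7% of all gene names were, and 11 (15.1%) were higher in esophageal organoids, where 7.15% of all gene names were. The remaining 41 were not called. The median difference was -0.13 over the 73 genes and 0.03 over all gene names. The values of the tissues did not overlap for 44 of the 73 genes (60.3%), against 31.6% of gene names measured on all arrays.

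Many gene names on these arrays are dim, which lowers the background share. Among gene names with a mean log2 value of at least 6 over the 6 arrays, 13.4% were higher in stomach and 13.0% in esophagus. A gene dim in 1 tissue reaches that level only through the other, so the members are not counted by it. With the threshold in the study's methods, an unadjusted p under 0.05 and a 1.5-fold difference, 24 members were higher in stomach against a background of 10.7%, and 15 were higher in esophagus against 11.0%. The arrays hold RNA of whole cultures, in which fewer cells of a type and less RNA per cell cannot be told apart.

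**Figure D1:**
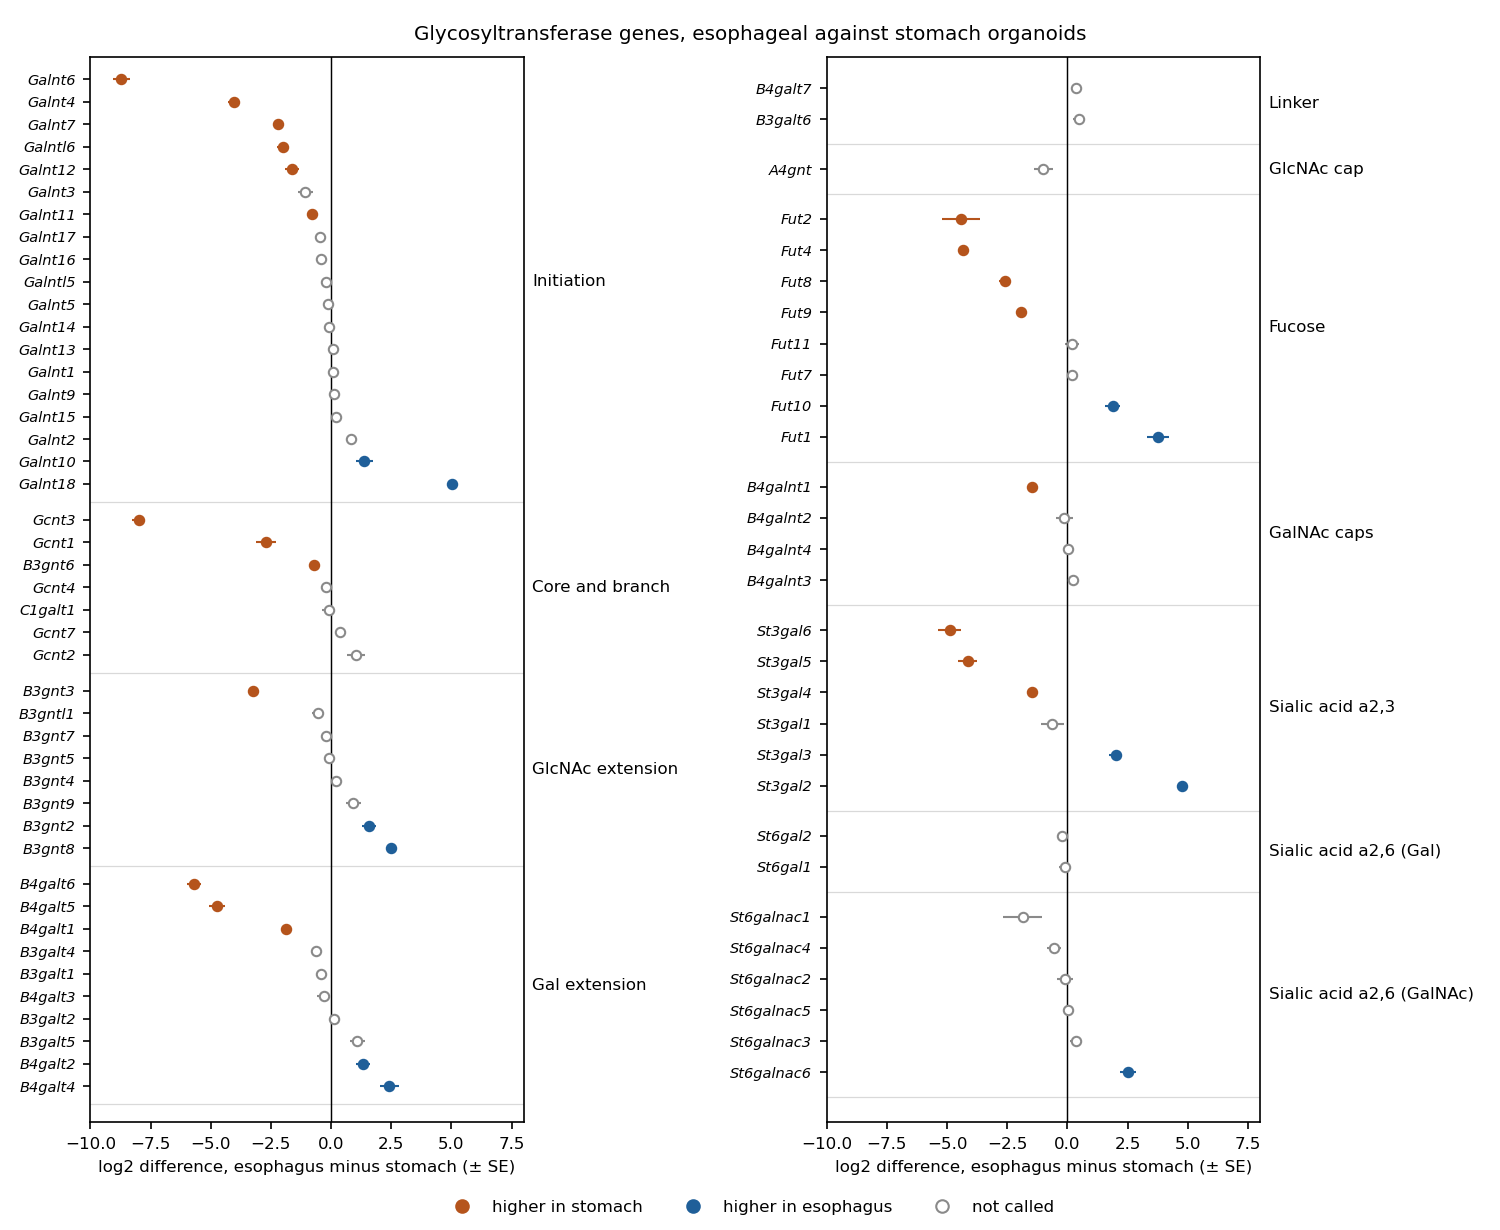
Log2 differences (esophagus minus stomach, x axis) of all 73 genes with standard errors as horizontal lines, in blocks by the step each enzyme catalyses; filled points passed the limma test. Differences ran from -8.71 for *Galnt6* to 5.04 for *Galnt18*, and the initiation, GlcNAc extension, galactose extension, fucose and α2,3-sialic acid blocks each held genes called in both directions.

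The oligonucleotides behind the strongest and the least uniform results are shown first, since each value is what 1 probe of 60 bases caught. Stretches of 30 bases are given 5′ to 3′, with mm9 positions of the whole probe. The pair for *Fut1* and *Fut2* is shown because these neighbouring genes differed in opposite directions. The *Fut1* probe lies at chr7:52876318-52876377 on the plus strand and the *Fut2* probe at chr7:52904672-52904731 on the minus strand, with 28294 bases between them. Their longest shared run is 6 bases, given in capitals.
Fut1, bases 1 to 30: tattcccttccaagagcaACTTCTattctt
Fut2, bases 31 to 60: tgagtagaattcagatgcatgtccACTTCT

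The next probes belong to the genes with the largest differences toward stomach by their brightest probe, *Galnt6* (chr15:100522237-100522296, minus strand) and *Gcnt3* (chr9:69879436-69879495, minus strand), and to *St3gal2* (chr8:113495359-113495418, plus strand), which is among the largest toward esophagus. The probes carry RefSeq transcript accessions in the array files, and the exon each lies in is not given in the sources used here.
Galnt6, bases 1 to 30: gaagagaggctgattgggaacctggtggaa
Gcnt3, bases 1 to 30: tgaagaggtcagatacactgtttaaaaatg
St3gal2, bases 1 to 30: gagtgttaagaggtttgggatgaggcaaca

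Initiation enzymes carried the largest difference of the group by the brightest probe of each gene. Of 19 genes of the *Galnt* family, 6 were higher in stomach organoids, 2 in esophageal organoids and 11 were not called, and 8 of those 11 were well above background on no array. *Galnt6*, an initiation enzyme closely related to *Galnt3*, read 14.14, 14.23 and 13.72 in stomach and 4.67, 6.09 and 5.19 in esophagus, where only 1 array was well above background. The difference of -8.71 ± 0.35 (SE, n = 3 and 3) was 419-fold in linear terms, with an adjusted p of 2.58e-06. No esophageal value came near a stomach value, although the size of the fold rests on a dim esophageal signal. As the mean of its probes *Galnt6* had a difference of -5.78, smaller than the -7.99 of *Gcnt3*.

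*Galnt4*, which prefers peptides that already carry GalNAc, read 12.74, 12.91 and 13.40 in stomach and 9.29, 8.71 and 8.93 in esophagus. It was 16.5-fold higher in stomach (difference -4.04 ± 0.23, adjusted p = 1.92e-05). *Galnt7*, a follow-up enzyme of the same kind, read 13.10, 12.83 and 13.13 against 11.07, 10.80 and 10.54 and was 4.65-fold higher in stomach (adjusted p = 0.000164). Both were well above background on all 6 arrays. *Galnt12* was higher in stomach by a smaller amount, with a difference of -1.63 ± 0.30 (adjusted p = 0.00973), and its second probe was also called in that direction.

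*Galnt18* had the largest difference toward esophagus by the brightest probe. It read 5.10, 4.79 and 4.85 in stomach, well above background on no array, and 9.98, 9.92 and 9.96 in esophagus. The fitted difference was 5.04 ± 0.15 with an adjusted p of 5.99e-07. As the mean of its probes it was 2.53, below *Fut1* at 3.75 and *St3gal2* at 2.98. Because the stomach signal has only an upper limit, the gene was at least 31.6-fold higher in esophagus by this probe. Such limits take the higher of the gene's own value and the lowest value of any probe well above background on that array. They hold for the probe used and the authors' values, and are not detection limits. Other processing or probes gave smaller fitted differences for some of these genes. *Galntl6* was well above background only in stomach, at 6.39, 6.65 and 5.82, and was at least 2.52-fold higher there (adjusted p = 0.00142).

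Close to the threshold, *Galnt10* (1.38 ± 0.35, adjusted p = 0.0398) was called higher in esophagus and *Galnt11*, an enzyme that also acts on Notch1, was called higher in stomach (-0.78 ± 0.21, adjusted p = 0.0487). *Galnt10* lost its call without any 1 stomach array (adjusted p from 0.0511 to 0.15), and its adjusted p was 0.126 without the esophageal array of mouse 2 and 0.0878 without that of mouse 4. It was also lost with a normexp offset of 50 (0.0866), with quantile-normalized background-subtracted intensities (0.0914), as the mean of its probes (0.0668) and with the slide as a block (0.0878). *Galnt11* likewise lost its call without any 1 stomach array (0.0862 to 0.183), without the esophageal array of mouse 1 (0.118) or of mouse 2 (0.149), and with the mouse as a block (0.0637). Its call was lost as well with a normexp offset of 50 (0.0615), with background-subtracted intensities scaled to the 75th percentile (0.143) or quantile normalized (0.0809), with median centring (0.0502) and with trend and robust variances (0.0919). *Galnt2*, a broadly expressed initiation enzyme, was not called, with a difference of 0.85 and an adjusted p of 0.0544, and was called with the mouse as a block (0.0282). *Galnt1* had a difference of 0.09 ± 0.17, and *Galnt3*, bright in both tissues, had a difference of -1.07 (adjusted p = 0.0783).

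The gene of the core 1 enzyme was not called, whereas both main genes of core 2 branching were. *C1galt1*, the galactosyltransferase through which nearly all core 1 and core 2 chains pass, read 9.76, 9.74 and 9.33 in stomach and 10.13, 9.10 and 9.28 in esophagus. The tissues overlapped and the difference was -0.10 ± 0.28 (adjusted p = 0.883), with a sign that turned to 0.01 on slide 1 alone. Its chaperone *C1galt1c1* had a difference of -0.40 (adjusted p = 0.278).

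*Gcnt3*, the mucin-type branching enzyme that makes core 2 and core 4, was the second largest difference by the brightest probe. It read 14.10, 14.04 and 13.99 in stomach and 6.69, 5.96 and 5.49 in esophagus. The 3 stomach values lay within an SD of 0.05, and the difference of -7.99 ± 0.28 was 255-fold (adjusted p = 1.45e-06), with 2 esophageal arrays well above background. *Gcnt1*, the more widely expressed core 2 enzyme, read 11.39, 11.23 and 12.16 against 9.56, 7.98 and 9.15 and was 6.48-fold higher in stomach (adjusted p = 0.00469). All 3 *Gcnt1* probes were called in that direction, with differences of -2.70, -1.73 and -1.37.

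*B3gnt6*, which makes core 3, was dim. It read 5.61, 5.84 and 5.98 in stomach and 4.94, 5.08 and 5.30 in esophagus, where no array was well above background. It was at least 1.59-fold higher in stomach, with an adjusted p of 0.0333 that rose to between 0.0572 and 0.119 without any 1 stomach array, to 0.0862 without the esophageal array of mouse 1 and to 0.097 without that of mouse 2. *Gcnt2*, which makes the branches of the I blood group antigen, had the opposite sign without being called (1.04 ± 0.37, adjusted p = 0.124).

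**Figure D2:**
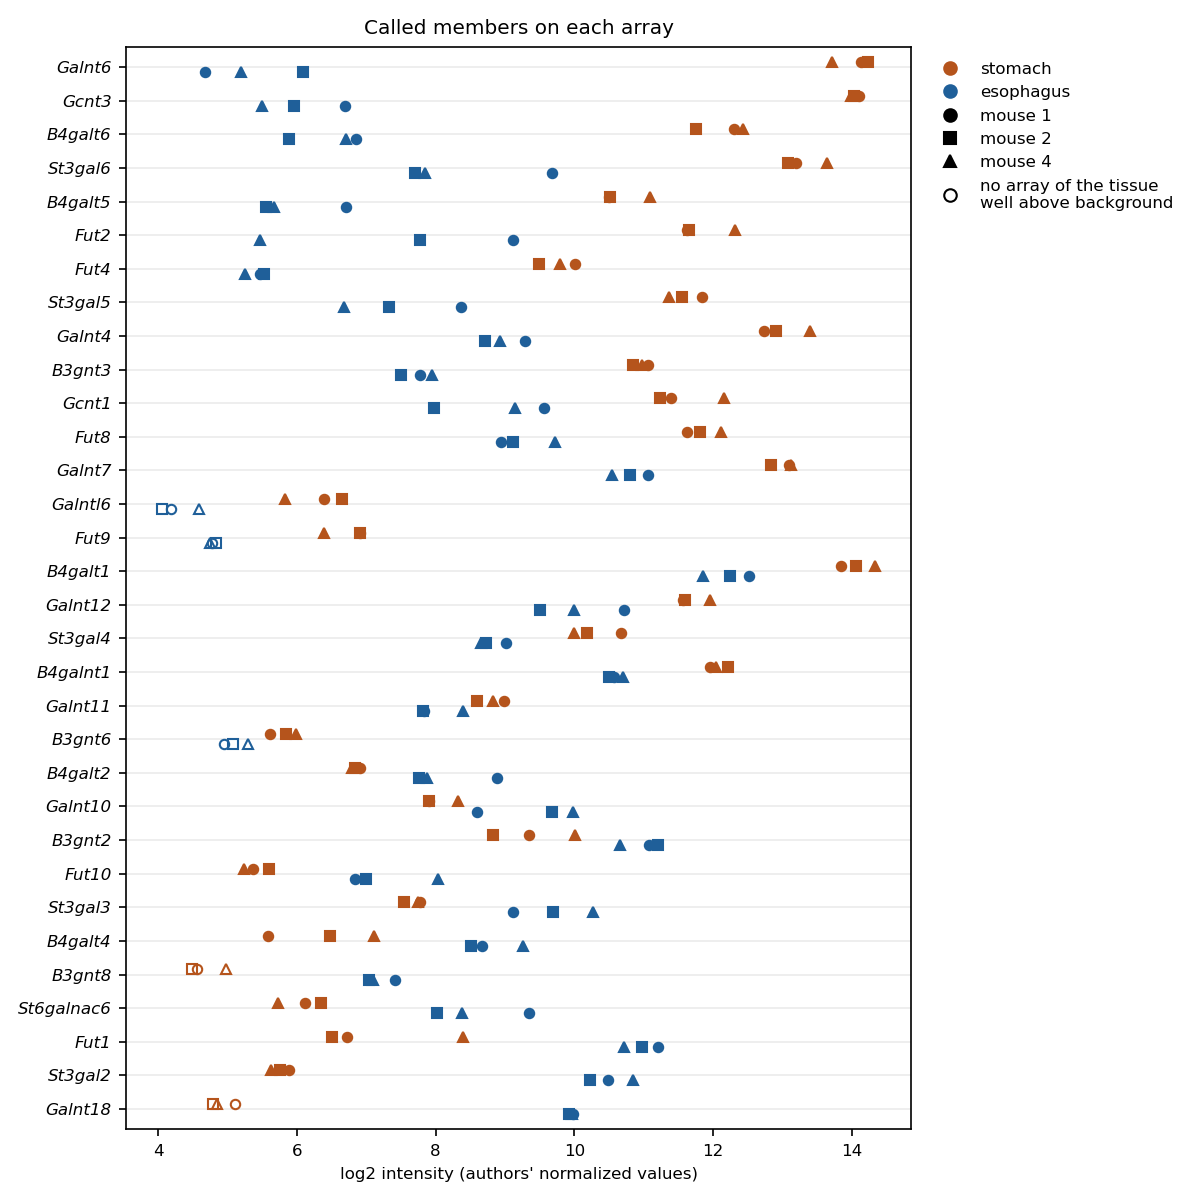
Log2 intensity (x axis) of the 32 called genes on each of the 6 arrays, with color for the tissue, shape for the mouse and open symbols where no array of that tissue was well above background. The 21 genes at the top were higher in stomach and the 11 at the bottom in esophagus, and in each the 3 arrays of a tissue lay on 1 side of the other 3.

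Among chain-extending enzymes, members of 1 family went opposite ways. Of 8 GlcNAc extension genes, 1 was higher in stomach and 2 in esophagus. *B3gnt3*, which lengthens core 1, read 11.07, 10.85 and 10.97 in stomach and 7.77, 7.5 and 7.95 in esophagus, 9.37-fold higher in stomach (-3.23 ± 0.17, adjusted p = 1.11e-05). In contrast, *B3gnt2*, the main polylactosamine synthase, read 9.34, 8.82 and 10.01 in stomach and 11.08, 11.21 and 10.66 in esophagus. It was 3.02-fold higher in esophagus (adjusted p = 0.0124), a call lost without the stomach array of mouse 1 (0.0607) or the esophageal array of mouse 2 (0.0506).

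*B3gnt8*, a partner of *B3gnt2* on branched N-glycans, was well above background in esophagus only, at 7.41, 7.04 and 7.10. Its stomach values of 4.56, 4.48 and 4.98 were at the level of the array background, so it was at least 5.11-fold higher in esophagus (adjusted p = 9.7e-05). Across the alternatives the fitted difference of *B3gnt8* ran from 1.55 to 5.15. *B3gnt4*, *B3gnt5* and *B3gnt7* were well above background on no array.

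The *B4galt* genes, which add galactose mostly to GlcNAc or to ceramide-linked glucose, were well above background on all 6 arrays in 7 of 7 cases. Of these 7, 3 were higher in stomach and 2 in esophagus. *B4galt6*, a lactosylceramide synthase, read 12.31, 11.76 and 12.43 in stomach and 6.85, 5.89 and 6.71 in esophagus, 51.3-fold higher in stomach (-5.68 ± 0.29, adjusted p = 1.1e-05). *B4galt5*, the other lactosylceramide synthase, had a similar difference of -4.72 ± 0.33 (adjusted p = 6.05e-05), from 10.50, 10.51 and 11.09 in stomach and 6.71, 5.56 and 5.67 in esophagus. The lactose synthase subunit *B4galt1* was 3.66-fold higher in stomach (adjusted p = 0.00101) and was bright in both tissues.

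*B4galt4* read 5.58, 6.47 and 7.11 in stomach and 8.67, 8.51 and 9.26 in esophagus, 5.38-fold higher in esophagus (adjusted p = 0.00498), a call that was narrowly lost with quantile-normalized background-subtracted intensities (0.0524). *B4galt2* was 2.51-fold higher in esophagus (adjusted p = 0.0224), from 6.91, 6.83 and 6.80 to 8.89, 7.76 and 7.87. That call was lost without any 1 stomach array (0.0526 to 0.089), with a normexp offset of 50 (0.058) and with quantile-normalized background-subtracted intensities (0.0551). *B4galt3* had a difference of -0.31 and was not called. Of the 5 *B3galt* genes 0 were called by limma and 2 had an unadjusted p under 0.05, and *B3galt5*, which makes type 1 chains, came nearest with 1.1 ± 0.31 (adjusted p = 0.0603). Nor were *B4galt7* and *B3galt6* called, the pair that builds the proteoglycan linker, with differences of 0.35 and 0.47.

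Fucosyltransferases differed in both directions. Of 8 genes, 4 were higher in stomach organoids and 2 in esophageal organoids. *Fut1* and *Fut2* encode the enzymes of the same α1,2 linkage that makes the H antigen, *Fut2* being the secretor enzyme of mucosal epithelia. *Fut2* read 11.63, 11.66 and 12.32 in stomach and 9.12, 7.78 and 5.46 in esophagus. It was 21.4-fold higher in stomach (-4.42 ± 0.80, adjusted p = 0.00963). The esophageal arrays spread over an SD of 1.85, the widest of these fucosyltransferases, and the lowest was the array that was alone on its slide. On slide 1 alone the difference was -3.42 (adjusted p = 0.00194), and it was -5.25 without the esophageal array of mouse 1. The call was lost with quantile-normalized background-subtracted intensities (adjusted p = 0.123).

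*Fut1* showed the reverse. It read 6.72, 6.51 and 8.40 in stomach and 11.21, 10.97 and 10.71 in esophagus, 13.5-fold higher in esophagus (3.75 ± 0.46, adjusted p = 0.00142). Among the stomach arrays the one harvested on day 7 was the highest, and without it the difference was 4.35. Between cultures of the same mouse number *Fut1* was higher in the esophageal culture in all 3 pairs, by 4.49, 4.46 and 2.31, and *Fut2* differed by -2.51, -3.88 and -6.86.

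The α1,3-fucosyltransferases that make the Lewis x structure were higher in stomach. *Fut4* read 10.01, 9.49 and 9.79 in stomach and 5.47, 5.53 and 5.25 in esophagus, a 20.4-fold difference (-4.35 ± 0.18, adjusted p = 3.22e-06). Only 1 of the 3 esophageal arrays was well above background, so the size of that fold rests on a dim signal. *Fut9* was dimmer, at 6.91, 6.91 and 6.39 in stomach, with no esophageal array well above background. It was at least 3.42-fold higher in stomach (adjusted p = 0.000302), and its other probes were called in the same direction, 1 of them without being well above background on any array. *Fut7*, the leukocyte enzyme of sialyl Lewis x, was well above background on no array of either tissue.

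*Fut8*, which adds the core fucose of N-glycans and not of O-glycans, was 6.02-fold higher in stomach (-2.59 ± 0.24, adjusted p = 0.000277), from 11.62, 11.82 and 12.11 against 8.94, 9.12 and 9.72. *Fut10* was 3.71-fold higher in esophagus (adjusted p = 0.00598) at 6.83, 7.0 and 8.03, with stomach values between 5.24 and 5.59, of which 1 array was well above background. *Fut11* had overlapping values and a difference of 0.19.

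**Figure D3:**
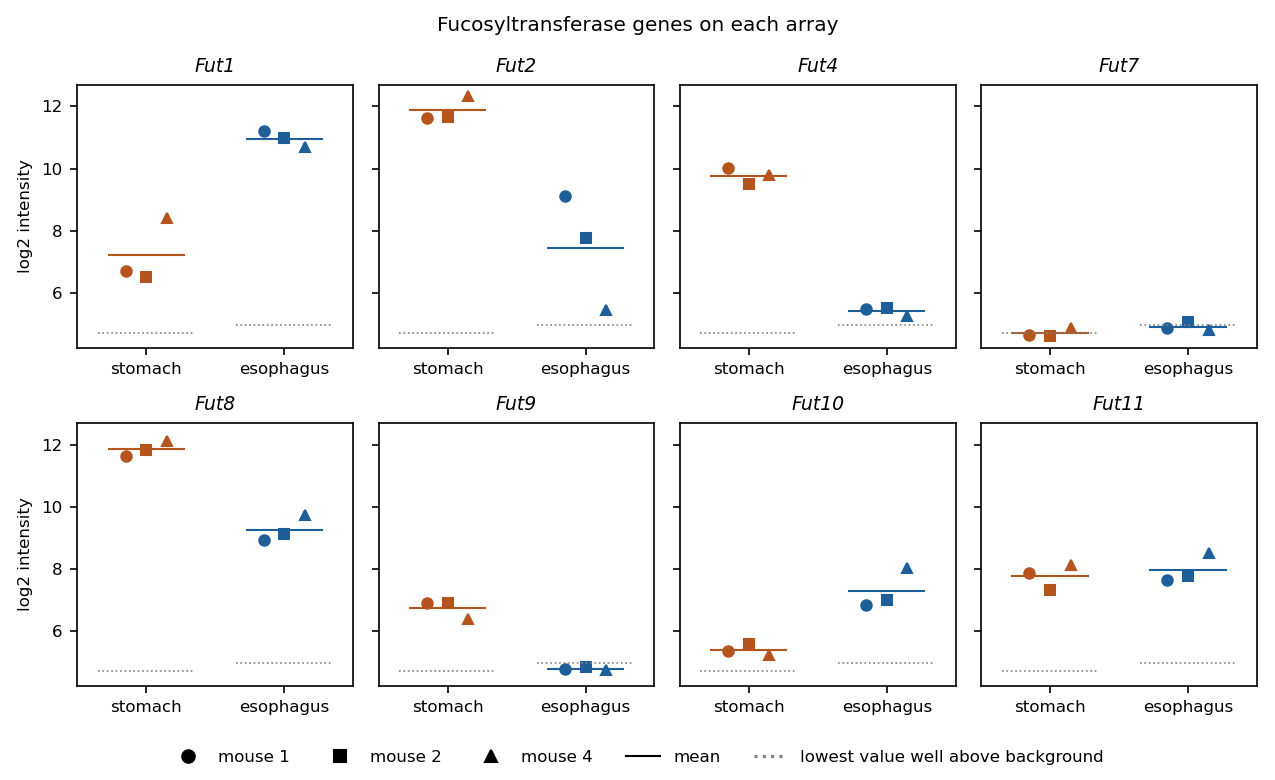
Log2 intensity (y axis) of the 8 fucosyltransferase genes on each array, with horizontal lines for the tissue means and dotted lines for the mean, per tissue, of the lowest value well above background. *Fut1* was higher in esophageal organoids (10.71 to 11.21) and *Fut2* in stomach organoids (11.63 to 12.32), while *Fut7* stayed near the dotted line in both.

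Sialyltransferases of the α2,3 type also divided. All 6 *St3gal* genes were well above background on all 6 arrays. Of these, 3 were higher in stomach and 2 in esophagus. *St3gal6*, which acts on type 2 chains, read 13.20, 13.08 and 13.65 in stomach and 9.68, 7.70 and 7.84 in esophagus, 29.9-fold higher in stomach (adjusted p = 0.000479), and the difference went from -4.90 to -5.54 without the esophageal array of mouse 1. *St3gal5*, which makes the ganglioside GM3, was 17.6-fold higher in stomach (-4.14 ± 0.39, adjusted p = 0.000334). *St3gal4* was 2.81-fold higher there (adjusted p = 0.00301).

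*St3gal2*, which sialylates the galactose of core 1 and of gangliosides, read 5.89, 5.76 and 5.62 in stomach and 10.49, 10.22 and 10.84 in esophagus. It was 27.1-fold higher in esophagus (4.76 ± 0.19, adjusted p = 2.79e-06), with differences of 4.60, 4.46 and 5.22 between cultures of the same mouse number. *St3gal3* was 4-fold higher in esophagus (adjusted p = 0.00266). *St3gal1*, the other core 1 sialyltransferase, was not called (-0.64 ± 0.48, adjusted p = 0.512), with the esophageal array of mouse 1 at 10.10 beside 8.27 and 8.48. Without that array the difference was -1.21 with an adjusted p of 0.044.

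Among α2,6-sialyltransferases, only *St6galnac6* was called. This ganglioside-related enzyme read 6.12, 6.35 and 5.73 in stomach and 9.35, 8.02 and 8.38 in esophagus, 5.71-fold higher in esophagus (2.51 ± 0.34, adjusted p = 0.00234). As the mean of its probes the difference was 1.16 (adjusted p = 0.0109). *St6gal1*, the main α2,6-sialyltransferase of N-glycans, was dim in both tissues and overlapped (-0.10 ± 0.25, adjusted p = 0.875). *St6galnac1*, which makes the sialyl-Tn structure on mucins, read 13.31, 13.46 and 10.27 in stomach and 10.13, 11.22 and 10.10 in esophagus. Over all 6 arrays its difference of -1.86 ± 0.81 was not called (adjusted p = 0.213). Without the day 7 stomach array it was -2.90 and was called (adjusted p = 0.00247).

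*A4gnt* adds the terminal GlcNAc of the gastric gland mucin. It read 5.05, 5.81 and 6.81 in stomach, of which 2 arrays were well above background, and 4.90, 4.85 and 4.93 in esophagus, where none was. The tissues did not overlap, but the stomach values spread over an SD of 0.89 and the difference of -1.0 ± 0.39 was not called (adjusted p = 0.168). Without the stomach array of mouse 1 it was -1.42 and was called (adjusted p = 0.0424), and without that of mouse 4 it was -0.53 (adjusted p = 0.238). With the software's background-subtracted intensities scaled to the 75th percentile it was -2.97 (adjusted p = 0.0181).

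*A4gnt* and *St6galnac1* had their extremes on the same array, the day 7 stomach culture of mouse 4. On that array the gland mucin gene *Muc6* was at 9.79 beside 7.39 and 8.33, and the surface mucin gene *Muc5ac* was at 13.26 beside 15.65 and 15.03. The other neck and gland markers did not all follow *Muc6*. Of that list, *Aqp5* was also highest there (16.09 beside 15.14 and 15.36), whereas *Gkn3* (16.16 beside 17.16 and 17.07) and *Tff2* (17.48 beside 17.62 and 17.73) were lowest, and the list's summed linear intensity was 327000 beside 384000 and 397000. This is a description of 1 array, and culture day and mouse cannot be told apart on it.

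**Figure D4:**
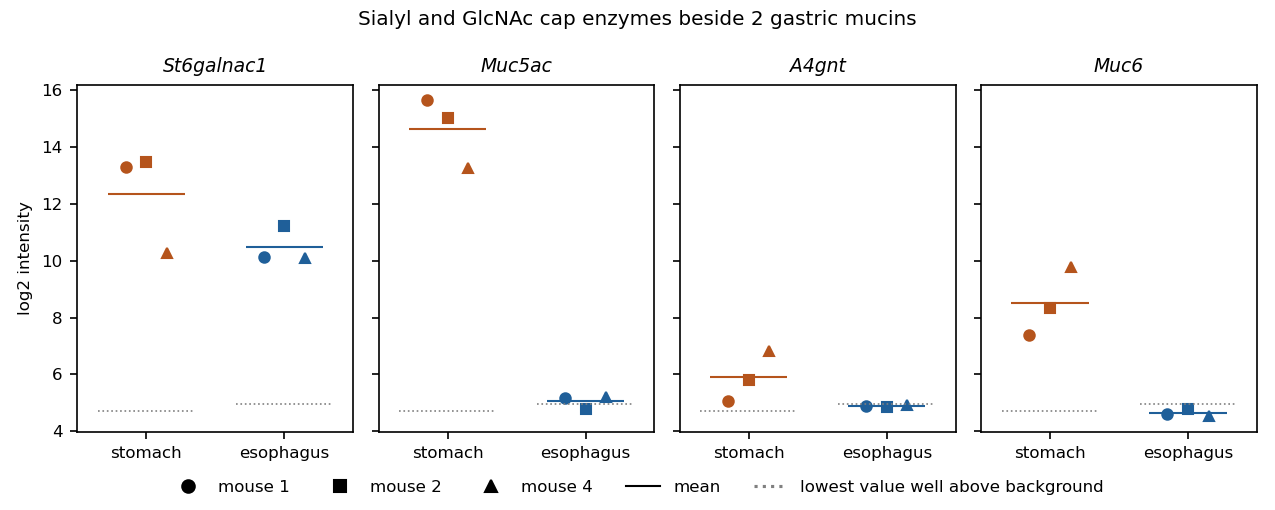
Log2 intensity (y axis) of *St6galnac1*, *Muc5ac*, *A4gnt* and *Muc6* on each array, with horizontal lines for the tissue means and dotted lines for the mean of the lowest value well above background. The triangle of the stomach column, mouse 4, was lowest for *St6galnac1* (10.27) and *Muc5ac* (13.26) and highest for *A4gnt* (6.81) and *Muc6* (9.79).

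Of the 4 *B4galnt* genes, which add GalNAc caps, *B4galnt1* was called. This ganglioside GM2 synthase read 11.96, 12.21 and 12.05 in stomach and 10.57, 10.50 and 10.70 in esophagus, 2.81-fold higher in stomach (-1.49 ± 0.15, adjusted p = 0.000411). *B4galnt2*, the enzyme of the Sda antigen, was well above background on 1 array of each tissue, with a difference of -0.13. *B4galnt3* was so on 2 arrays of each tissue, with a difference of 0.25, and its sign turned to -0.22 with 75th percentile scaling.

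In all, 17 of the 73 genes were well above background on no array, and nothing can be said of their difference at this signal. Besides the genes named above they were mostly further *Galnt* genes, along with *Gcnt4*, *Gcnt7*, *B3galt2*, *St6gal2* and *St6galnac5*.

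Where a gene had several probes, they mostly gave the same call. Of 31 such genes, 25 had the same call on all their probes, 9 of them called and 16 not. By limma 0 genes had probes called in opposite directions, also at an unadjusted p under 0.05. In the other 6, *B4galt5*, *Fut4*, *Galnt10*, *Galnt18*, *Galntl6* and *St6galnac6*, a called probe stood beside one that was not. For 4 of these the second probe stood above background on no array. The paired probes of *Fut4*, *Galnt18* and *B4galt5* are printed because a reader of a single probe would have reached a different result.
Fut4, called (chr9:14553224-14553283): atgttaatgagatattggccaggcgtctta
Fut4, not called (chr9:14555189-14555248): acatcacctctttctgggatgagcaatggt
Galnt18, called (chr7:118615450-118615509): agaagtgctcgggacaacactggactatca
Galnt18, not called (chr7:118692146-118692205): ggagcttgggatcagggtgagtgagatttc
B4galt5, called (chr2:167124056-167124115): gttttaaaaggtgccaggggtacatttttg
B4galt5, not called (chr2:167126904-167126963): caaaggagcggcaaggactggatggcctca

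The *Fut4* probes start 1965 bases apart and have a GC content of 45.0% and 55.0%. The second *Fut4* probe read 5.15, 5.25 and 4.80 in stomach, where the first read 9.49 or more. For *Galnt18* the starts lie 76696 bases apart, and the probe that was not called read 4.55 to 4.76 in esophagus. The second *B4galt5* probe was well above background on 1 array and had a difference of 0.04 (adjusted p = 0.954). For *Galnt6* the second probe gave the same call (adjusted p = 0.000622) but was well above background on no esophageal array, so it was at least 6.17-fold higher in stomach. For *St3gal2* the second probe was likewise called (adjusted p = 0.021) with no stomach array well above background, at least 1.86-fold higher in esophagus, and that probe spans 5114 bases of the genome, so it crosses an exon junction. Taking the mean of all probes moved the fold of 8 called genes by over 1.5 times, each toward a smaller fitted difference, and none of the 8 lost its call. Such means include probes that were not well above background in a tissue. Besides *Galnt6*, *Galnt18* and *St6galnac6*, given above, these were *B4galt5* (-2.34), *Fut4* (-2.35), *Galntl6* (-0.90), *Gcnt1* (-1.93) and *St3gal2* (2.98).

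**Figure D5:**
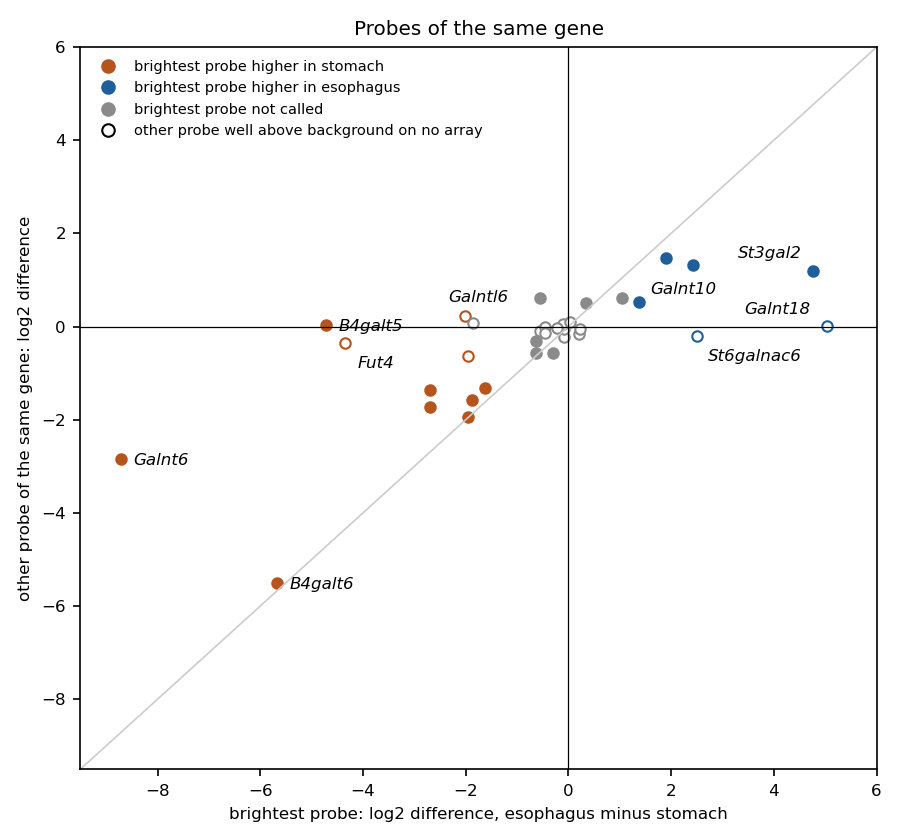
Log2 difference of the brightest probe (x axis) against that of each further probe of the same gene (y axis), esophagus minus stomach; open symbols are further probes well above background on no array, and the grey line marks equality. *B4galt6* lay near the line, *Galnt6* lay above it at fitted differences of -8.71 and -2.84, the latter with no esophageal array well above background, and *B4galt5*, *Fut4* and *Galnt18* had a further probe near 0.

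Genes that supply the sugars, remove them or encode mucins were more often called higher in stomach than in esophagus, and sulfotransferases were called in both directions. Over 10 lists of related genes outside the 73, which also hold N-glycan branching, α2,8-sialyltransferase, chaperone and O-fucose genes, 75 genes were measured. Of these, 32 (42.7%) were higher in stomach, where 7.7% of all gene names were, and 5 (6.67%) in esophagus, a share near the 7.15% of all gene names. Their median difference was -0.66, beside 0.03 over all gene names. These lists were chosen with earlier results of these data known. Their mucin and trefoil genes include *Muc2*, *Muc5ac*, *Muc6*, *Tff1* and *Tff2*, which are also among the markers used to check the tissue labels. Of 24 genes that make or transport the nucleotide sugars, 12 were higher in stomach and 0 in esophagus by limma. At an unadjusted p under 0.05 these counts were 17 and 1.

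Fucose donor supply had 3 of 5 genes higher in stomach. *Gmds*, the first enzyme of GDP-fucose synthesis, read 15.34, 15.19 and 15.38 against 10.51, 10.86 and 11.34 and was 21.1-fold higher (adjusted p = 9.91e-06). *Slc35c1*, the Golgi GDP-fucose transporter, was 6.01-fold higher (adjusted p = 0.000264) and *Tsta3*, which completes the synthesis, 2.04-fold (adjusted p = 0.00272). The salvage enzymes *Fuk* and *Fpgt* had differences of -0.09 and 0.35 and were not called.

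Galactose and hexosamine supply had 8 of 14 genes higher in stomach, led by *Galk1* (galactokinase, -4.03), *Galm* (-2.47) and *Uap1l1* (-2.36). In sialic acid supply *Gne*, the rate-limiting enzyme, was 23.9-fold higher in stomach (adjusted p = 0.000183), while *Nans*, *Nanp*, *Cmas* and *Slc35a1* were not called. None of 5 genes of protein O-fucose and its extension, as on Notch, and none of 4 genes of the core 1 chaperone list was called by limma or had an unadjusted p under 0.05.

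Outside O-glycans, N-glycan branching had 3 genes higher in stomach and 2 in esophagus of 8, with *Mgat3*, which adds the bisecting GlcNAc, at -3.84 (adjusted p = 0.00393) and *Mgat4b* at 0.72 (adjusted p = 0.0229). *Mgat3* was at -3.16 without the esophageal array of mouse 2 and at -4.47 without that of mouse 4. The *Mgat4b* call was lost without the stomach array of mouse 1 (0.105) or mouse 4 (0.0505), or the esophageal array of mouse 1 (0.0602) or mouse 4 (0.0605). The other gene called higher in esophagus, *Man2a2* (0.72, adjusted p = 0.0284), lost its call without any 1 stomach array (0.0651 to 0.0851) and without the esophageal array of mouse 2 (0.0611) or mouse 4 (0.0732). Sulfotransferases had 2 higher in stomach and 3 in esophagus of 8. *Gal3st1*, which sulfates galactose of glycolipids, was 10.8-fold higher in stomach (adjusted p = 5.68e-05), and *Gal3st4* was at least 3.07-fold higher in esophagus (adjusted p = 0.00572).

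Of 6 α2,8-sialyltransferases, *St8sia6* alone was called. It read 12.09, 11.48 and 12.61 in stomach and 4.76, 4.57 and 4.59 in esophagus, at least 137-fold higher in stomach (adjusted p = 1.74e-06). Lysosomal glycosidases, which take glycans apart, had 6 of 7 genes higher in stomach, with the sialidase *Neu1* the largest at -3.23 ± 0.14 (adjusted p = 4.02e-06).

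The mucin and trefoil acceptors had 8 of 13 genes higher in stomach and 0 in esophagus by limma, and 9 and 0 at an unadjusted p under 0.05. *Muc5ac* was at least 713-fold, *Muc1* at least 141-fold and *Muc5b* at least 54.8-fold higher in stomach. *Muc6* was at least 11.7-fold higher (adjusted p = 0.00224). Without the stomach array of mouse 4 the limit was 1150-fold for *Muc5ac* and 7.48-fold for *Muc6*. *Muc4*, a membrane mucin, was not called (-4.30 ± 1.40, adjusted p = 0.0988), as its esophageal values were 11.08, 5.71 and 5.17.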

How the data were processed

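The 6 single-color arrays comprised 3 per tissue, each labelled with its own mouse number. Per the file headers, the authors used Agilent Feature Extraction 11.5.1.1, and the deposited scanner files hold unnormalized raw and background-subtracted intensity per spot. The authors' deposited log2 values, used here, had been background corrected and quantile normalized. An offset of 15 (normexp, median intensities, then quantile normalization) gave back these values with a median absolute difference of 0.00433, so differences of dim genes are understated. All 2029 empty cells were outlier-marked spots.

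Spots of a probe were averaged and tissues compared with limma (version 3.58.1, R 4.3.3; lmFit, eBayes, no covariates, 2-sided) over all 55681 probes with Benjamini-Hochberg adjustment. The script was tested on simulated data. A probe was well above background where a share of at least 0.5 of its spots was. The precision is limited by 3 arrays per tissue, and depth does not apply to intensities.

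The labels give both tissues the mouse numbers 1, 2 and 4; that a number marks 1 animal in both is not stated in the sources used here. Deviations of same-numbered arrays correlated with r of 0.025, 0.012 and -0.008, and the mouse as a block was an alternative. It moved no count of members by over 1.5 times. Other alternatives were other signals and scalings, a dim-probe filter, other probe choices, trend and robust variances, the slide, each array left out, and other thresholds.

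Named genes were every called member, any member with probes called oppositely, and 15 enzymes named by their role (*A4gnt*, *C1galt1*, *Fut1*, *Fut2*, *Fut4*, *Fut8*, *Fut9*, *Gcnt1*, *Gcnt3*, *B3gnt6*, *B4galnt2*, *B4galnt3*, *St6galnac1*, *St3gal1* and *St6gal1*). Up to 3 called genes per direction came from each pathway list. Further names were added after their values were seen. The members and lists were chosen with earlier results of these data known. Probe sequences and mm9 positions are those of the array files. All 73 names matched symbols of the RefSeq gene table (GRCm38.p6). The text leaves out 1 gene of the marker lists, which is not reported here.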

Additional observations from a re-analysis of the deposited data

How the results depend on the processing

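No called member changed direction under any alternative that gave a value, and 25 of the 32 kept their call under each. The exceptions were *Galnt10*, *Galnt11*, *B3gnt6*, *B4galt2*, *B3gnt2*, *B4galt4* (adjusted p = 0.0524) and *Fut2* (0.123). Quantile-normalized background-subtracted intensities ended the calls of *B4galt4*, *Fut2*, *B4galt2*, *Galnt10* and *Galnt11*. The fold of 12 called members was larger by over 1.5 times with background-subtracted intensities under either scaling, and that of 10 was smaller with a normexp offset of 50. Across alternatives to the signal, fit, probe, slide and threshold, 19 to 24 members were called higher in stomach and 8 to 15 in esophagus. With each array left out in turn the counts were 19 to 21 and 8 to 12. With the mouse as a replicate block they were 20 and 12, and only *Galnt11* and *Galnt2* changed their call.

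Signs turned only in genes that were not called. *B4galnt3* was -0.22 with 75th percentile scaling and -0.07 with quantile normalization of the background-subtracted intensities. With the slide as a block, as on slide 1 alone, *C1galt1* was 0.01 and *St6gal1* 0.02. With single arrays left out, *B4galnt2* ran from -0.49 to 0.16, *C1galt1* from -0.42 to 0.10 and *St6gal1* from -0.38 to 0.07. The cause was not tested.

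For genes outside the group, with alternatives added after the data were seen, 26 to 35 of 75 were called higher in stomach. Those higher in esophagus numbered 5, and 3 with 75th percentile scaling, trend and robust variances, the mouse block, the slide block or slide 1 alone, and 3 to 5 with single arrays left out. The 75th percentile scaling moved the median of all probes to 0.19. Low signal, 3 arrays per tissue and the shared change of medium limit these results.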
